A study of Homo sapiens with 7 samples.

Results

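The DNA methylation enzymes and their partner described here are DNMT1, DNMT3A, DNMT3B, TET1 and UHRF1, followed through every isoform that long-read sequencing assigned to them in human embryonic stem cells. They were chosen by name: each symbol was mapped to its Ensembl gene ID, and all isoforms with that ID were taken. This gave 5 of the 14294 genes in the table, and 310 of its 386982 isoforms. DNMT1 had 88 isoforms, DNMT3A 118, DNMT3B 50, UHRF1 50 and TET1 4. The choice was made by name, though earlier results of these data were known at the time.

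The study sequenced polyadenylated RNA of the established human embryonic stem cell line HUES66 on the PacBio Revio system. Cas13d, an enzyme that cuts RNA at sites set by a guide RNA, was aimed at isoforms of RBFOX2, which encodes a splicing regulator. There were 7 libraries, 1 for each group. The control is labelled WT. The knockdown groups, called the G libraries here, are labelled with a G number and an RBFOX2 id, which is 178147 for G3, 178149 for G5, 178136 for G11, 178135 for G12, 178145 for G13 and 178146 for G14. The labels do not say which isoform an id stands for. Every culture, the control included, was treated with doxycycline at 1 µg/ml, was taken at 24 h, and carries the note piggyBac, the name of a transposon vector. No group had a second library. Nothing below therefore has a replicate check, no p-value can be given, and every interval covers counting error only.

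DNA methylation in mammals is kept up by a small set of enzymes that add methyl groups to cytosines next to guanines. DNMT1 copies the pattern onto the new strand after replication, and UHRF1 brings it there by binding sites methylated on the parent strand alone. DNMT3A and DNMT3B set new methylation and are both known to be abundant in pluripotent cells. TET1 oxidizes methylcytosine, a step toward its removal, and is known as a TET enzyme of embryonic stem cells.

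The control library was the shallowest, at 16801842 reads, and G12 the deepest, at 26678537. Only isoforms with a control read are listed. They hold all reads of the control but 98.1% (G3) to 98.6% (G13) of those of the G libraries. Totals of the G libraries, and their ratios to the control, leave out the rest. Levels are in TPM, here the reads of an isoform or gene scaled to the total of its library, with no term for length. A count of 3 reads, the floor used here, was worth 0.112 to 0.179 TPM. Ratios to the control are on the scale log2(TPM + 0.5). RBFOX2 stood at 107 TPM in the control and at 106 in G14, 96.8 in G5, 88.5 in G12, 82.9 in G11, 55.9 in G13 and 42.1 in G3. Of 8 pluripotency markers, 7 were in the table, and together they summed to 2027 TPM for the control and to between 1596 and 2004 TPM for the G libraries. They did not move together: POU5F1 (915 TPM in the control, 377 to 588 in the G libraries) and NANOG (9.999 against 3.49 to 5.54) were lower in all 6, NANOG 2-fold in 4, whereas L1TD1 (18.2 against 24.9 to 41.0) was higher in all 6 and 2-fold in 5. What part this has in the results below was not tested. Markers of endoderm (2 of 4 in the table), mesoderm (3 of 4) and neural ectoderm (1 of 4) summed to at most 0.238 TPM in any library, and those of trophoblast (2 of 4) to 0.937 to 2.41 TPM. In bulk RNA, fewer cells of a type and less RNA per cell cannot be told apart.

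In gene totals, all 6 G libraries had less DNMT1 than the control, whereas UHRF1, DNMT3A and DNMT3B were higher in G3 and G5 and lower in G12, G13 and G14. DNMT1 stood at 92.4 TPM in the control, 82.7 in G3, 53.5 in G12, 44.9 in G13, 40.7 in G5, 33.5 in G11 and 33.1 in G14. UHRF1 stood at 116 TPM in the control, 152 in G5, 151 in G3, 115 in G11, 81.3 in G12, 77.1 in G14 and 58.7 in G13. DNMT3A stood at 78.7 TPM in the control, 98.7 in G5, 95.8 in G3, 78.8 in G11, 50.3 in G14, 49.5 in G12 and 40.9 in G13. These 2 genes thus followed nearly the same order, with G3 and G5 on top, G11 at the control's level and G13 at the bottom. DNMT3B stood at 44.3 TPM in the control, 13.4 in G13, 22.6 in G12, 24.0 in G14, 28.4 in G11, 48.4 in G5 and 68.0 in G3. It covered the widest range of the 4 abundant genes, 5.07-fold between G3 and G13. TET1 had 2 to 6 reads a library.

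**Figure D1:**
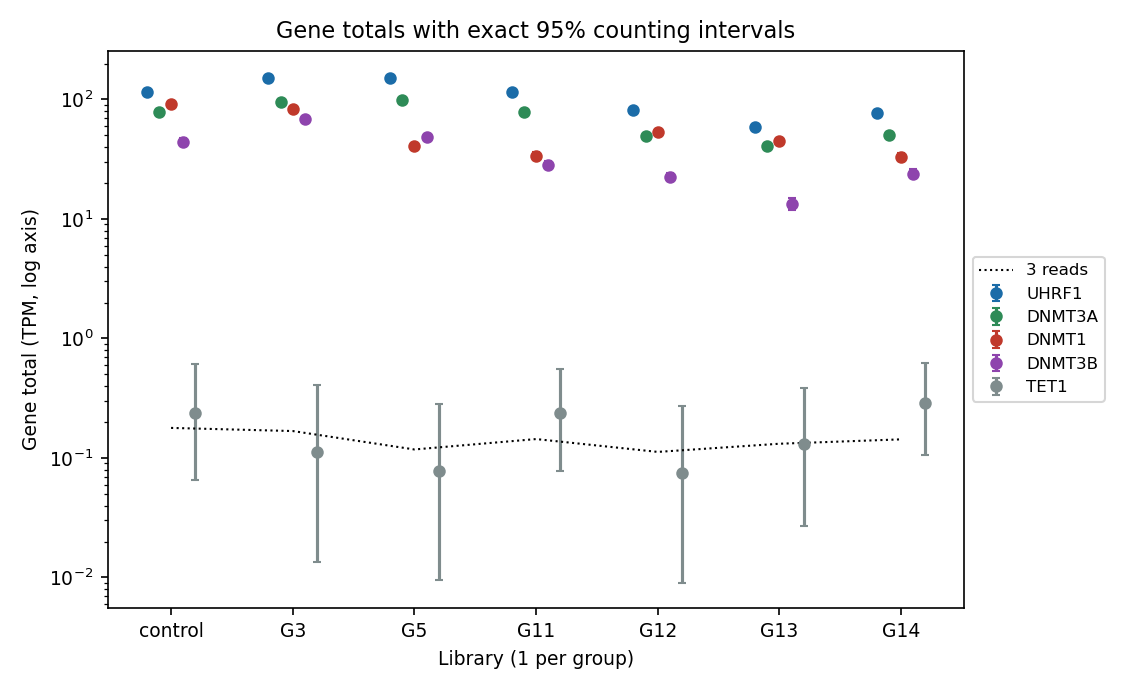
Level of each gene (TPM, log axis) in the 7 libraries, 1 per group; points are gene totals, bars are exact 95% Poisson intervals (counting error only) and the dotted line is the level of 3 reads. DNMT1, UHRF1, DNMT3A and DNMT3B lie between 13.4 and 152 TPM, while TET1 lies around the line of 3 reads.

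Counting error was small beside most of these differences. As a share of the control, DNMT1 was at 89.5% in G3 (83.3 to 96.2), 57.9% in G12 (53.8 to 62.2), 48.6% in G13 (44.9 to 52.7), 44.1% in G5 (40.7 to 47.7), 36.3% in G11 (33.1 to 39.7) and 35.9% in G14 (32.8 to 39.3), with exact 95% intervals in parentheses. UHRF1 ranged from 50.4% in G13 (47.0 to 54.1) to 130% in G5 (124 to 138). DNMT3A ranged from 52.0% in G13 (47.8 to 56.6) to 125% in G5 (117 to 134). DNMT3B ranged from 30.3% in G13 (26.5 to 34.7) to 154% in G3 (140 to 169). Some neighbours in the order of levels did not differ beyond counting error: G11 and G14 for DNMT1; G3 and G5, G11 and the control, and G12 and G14 for both UHRF1 and DNMT3A; G5 and the control, and G12 and G14, for DNMT3B.

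Genes with a mean of at least 5 TPM were compared, 7877 in all, and DNMT1, UHRF1, DNMT3A and DNMT3B were among them while TET1 was not. A gene at least 2-fold from the control was counted. In G3 none of the 4 was 2-fold lower, against 5.14% of all genes compared. In G5 and in G11 only DNMT1 was 2-fold lower, against 10.1% and 10.4% of genes. In G12 none of the 4 was, against 8.79%. In G13 both DNMT1 and DNMT3B were 2-fold lower, against 14.6%, and in G14 only DNMT1 was, against 18.9%. The count for DNMT1 in G13 is marginal, since its interval given above spans 50% and its log2 ratio was -0.87 when libraries were scaled by the median of ratios. Some genes not counted were marginal too. The intervals of UHRF1 and DNMT3A in G13, given above, also span 50%. So do those of DNMT3B in G12 (45.7 to 56.8) and in G14 (48.2 to 60.7). None of the 4 was 2-fold higher in any G library, where 3.97% of genes were in G14, 1.89% in G3, 1.04% in G13, 0.724% in G11, 0.546% in G12 and 0.533% in G5. The median log2 ratio of the 4 genes was -1.01 in G13, -0.76 in G14, -0.72 in G12, -0.33 in G11, 0.22 in G5 and 0.33 in G3. Over all genes compared it was 0.14 in G5, 0.12 in G3, -0.04 in G11, -0.10 in G14, -0.16 in G12 and -0.21 in G13.

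The G libraries also differed from the control by transcript length and base composition, and these values belong beside the totals. For annotated isoforms under 1000 nt the log2 ratio had a median of -0.36 in G12, -0.38 in G13, -0.63 in G3, -0.68 in G11, -0.87 in G5 and -0.88 in G14. Over those of 5000 to 6000 nt it was 0.32 in G5, 0.31 in G3, 0.11 in G11, 0.08 in G14, -0.08 in G12 and -0.17 in G13. When the trend over all genes with length and GC content was removed in each library, the log2 ratios ranged from -1.43 to 0.16 for DNMT1, from -0.27 to 0.25 for DNMT3A, from -0.91 to 0.20 for DNMT3B and from -0.13 to 0.24 for UHRF1. The sign changed for UHRF1 in G3 (to -0.06), G11 (to 0.24) and G12 (to 0.04), for DNMT3B in G5 (to -0.12) and for DNMT1 in G13 (to 0.16), and for DNMT3A in no library. The trend was taken at the length of the annotated isoforms, which is not that of most DNMT1 reads, as follows.

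DNMT1, the maintenance methyltransferase, lies on the minus strand at chr19:10133345-10231286 (GRCh38, GENCODE 29). Its annotated transcript ENST00000340748 has 40 exons, 5408 nt and 1616 codons, with the catalytic domain at the carboxyl end of the protein. Most DNMT1 reads stopped far short of that end. Most of these ended in exon 8 (chr19:10173090-10173174), inside the coding sequence. In the control 1246 of 1552 reads did so (80.3%, Wilson interval 78.2 to 82.2), and in the G libraries the share was 87.1% in G13, 83.9% in G12, 79.1% in G11, 72.2% in G14, 61.0% in G5 and 38.0% in G3. A start and an end are given for each isoform only, so every read is placed here at those of its isoform. Of the 5582 reads of this form, 5400 belonged to isoforms that end at 1 position, 10173095. Smaller groups ended in exon 12 (360 reads), exon 13 (249) and exon 23 (296).

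The transcript sequence at these ends is shown so that the bases around them can be compared. Each line gives the last 30 bases before the most used end in lower case and the next 20 bases of the spliced transcript, which the reads lack, in capitals (GENCODE 29 transcript, 5′ to 3′).
DNMT1 exon 8: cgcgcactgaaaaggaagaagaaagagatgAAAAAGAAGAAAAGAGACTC
DNMT1 exon 12: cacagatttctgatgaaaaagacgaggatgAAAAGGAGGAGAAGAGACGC
DNMT1 exon 13: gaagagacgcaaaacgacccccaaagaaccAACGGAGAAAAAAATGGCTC
DNMT1 exon 23: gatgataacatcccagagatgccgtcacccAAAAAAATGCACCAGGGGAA

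At all 4 ends at least 10 of the next 20 bases were A. The exon 8 end lay 5 bases before the 3′ edge of its exon, so the capitals run on into exon 9. They hold 13 A in 20 bases, and 0.668% of the 5389 windows of 20 bases in this transcript hold as many. The next 20 bases after the ends in exons 12, 13 and 23 hold 10, 10 and 11 A, and 6.72%, 6.72% and 3.15% of windows hold as many. The end shown for exon 12 stands for 250 of the 360 reads there. That of exon 13 lies at the 3′ edge of the exon itself. Whether the A-rich stretches bear on where the reads end was not tested.

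DNMT1 reads that ended in exon 8 and those that ended in the last exon also began at different places. Of the reads that ended in exon 8, 97.0% were of isoforms that begin at least 150 nt before the ATG. Only 8 of the 1385 reads that ended in the last exon were of such isoforms (0.578%). None of the reads that ended in exon 12, 13 or 23 were, so the upstream start went with the exon 8 form. The 2 leading isoforms that end in exon 8 carry hashed IDs, begin 212 and 190 nt before the ATG, and held 51.5% and 17.8% of DNMT1 reads on average. The leading full-length isoform, ENST00000340748.8, begins 56 nt before the ATG and held 9.06%. The first of the hashed isoforms spans 927 nt of annotated exons from start to end. It starts 156 nt upstream of ENST00000340748.8, and these bases are 66.7% G and C.

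DNMT1 reads that reached the last exon did not follow the gene total. The control had 146 of them, against 631 in G3, 278 in G5, 112 in G12, 89 in G14, 79 in G11 and 50 in G13. Their level was 8.69 TPM for the control, 35.4 in G3, 10.9 in G5, 4.25 in G14, 4.198 in G12, 3.79 in G11 and 2.19 in G13. G3 was thus at 407% of the control (339 to 491) and G5 at 126% (103 to 155), while the other 4 lay between 25.2% in G13 (17.9 to 35.0) and 48.9% in G14 (37.1 to 64.1). The isoform ENST00000340748.8 itself had 60 reads in the control and 368 in G3, which is 577% of the control (439 to 772). Summed over isoforms with a reference ID alone, DNMT1 thus lay above the control in G3 and G5, at log2 ratios of 2.34 and 0.70, against -0.16 and -1.17 for the total. Reads that ended in exon 23 were also higher in G3, at 120 against 29 in the control, as were those that ended in exon 13, at 90 against 15.

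Reads that ended in exon 8 were lower in all 6 G libraries. They stood at 74.2 TPM in the control, 44.9 in G12, 39.1 in G13, 31.4 in G3, 26.5 in G11, 24.9 in G5 and 23.9 in G14. The log2 ratios were -0.72 in G12, -0.91 in G13, -1.23 in G3, -1.47 in G11, -1.56 in G5 and -1.61 in G14, beside the medians of -0.36 to -0.88 that isoforms under 1000 nt showed. G12 and G13 were nearest to the control in both, and each ratio of the exon 8 form lay below that median. For reads to the last exon the log2 ratio was 1.96 in G3, beside a median of 0.31 for isoforms of 5000 to 6000 nt. The near equality of the DNMT1 total in G3 and in the control thus joined a lower short form and a higher full-length form. How far length accounts for either was not tested.

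**Figure D2:**
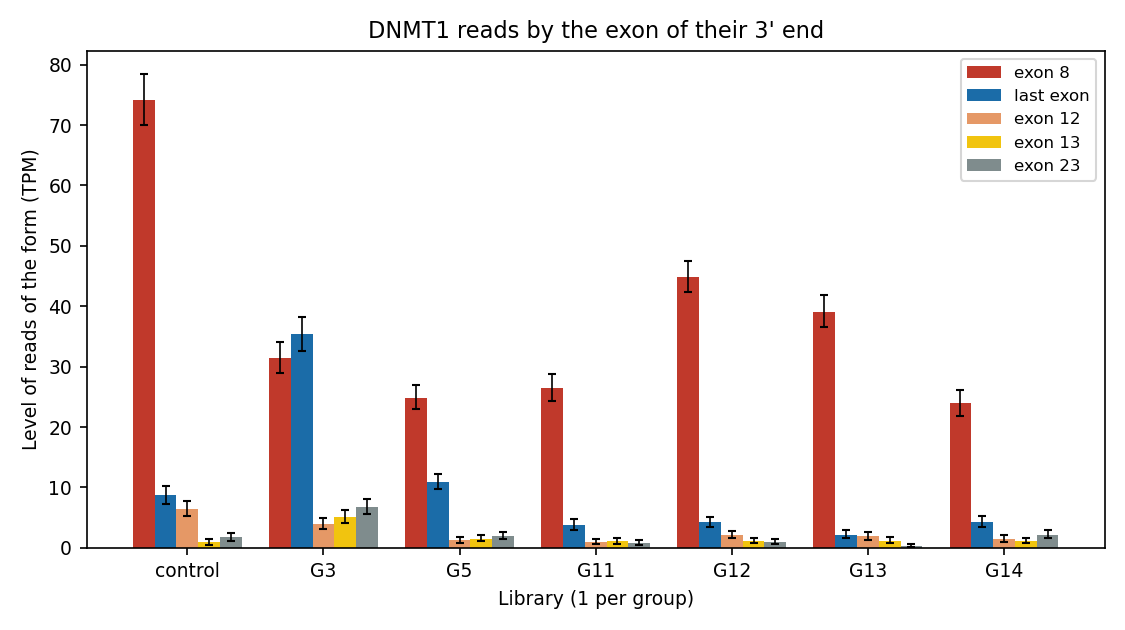
Level (TPM) of DNMT1 reads in the 7 libraries, 1 per group, by the exon in which the read ends; bars are levels and error bars exact 95% Poisson intervals. Reads that end in exon 8 stand at 74.2 TPM in the control and at 23.9 to 44.9 in G libraries, and reads to the last exon reach 35.4 TPM in G3 alone.

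The share of DNMT1 reads that reached the last exon put G3 and G5 apart. It was 9.41% in the control, 4.88% in G13, 7.85% in G12, 11.3% in G11, 12.8% in G14, 26.8% in G5 and 42.8% in G3. G3 and G5 differed from the control beyond counting error, with Wilson intervals of 40.2 to 45.3 and 24.2 to 29.6 against 8.05 to 10.96. G13 lay below it (3.72 to 6.38). Since the table lists no isoform without a control read, isoforms seen in G libraries alone are not analysed here. Of the 88 DNMT1 isoforms, 56 had a single control read and 28 had none in any G library.

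UHRF1, the reader of newly replicated methylated DNA that recruits DNMT1, lies on the plus strand at chr19:4903080-4962154 and had the highest TPM of the 5 genes in every library, on a scale with no length term. All its reads ended in the last exon. They began in 3 alternative first exons, called A (chr19:4909430-4909655), B (chr19:4910146-4910246) and C (chr19:4910367-4911038) here. The annotated transcript with exon A, ENST00000620565, starts its reading frame in that exon and has 857 codons, 64 more than ENST00000615884, which uses exon B. The first coding bases of exon A, with the ATG in capitals, mark the stretch that most UHRF1 reads carry (chr19:4909474-4909533, plus strand).
UHRF1 exon A: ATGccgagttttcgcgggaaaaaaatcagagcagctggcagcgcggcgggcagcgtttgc

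The choice of first exon stayed close to the control while the level changed. Exon A held 83.1% of UHRF1 reads in the control, 84.8% in G5, 84.0% in G12, 83.5% in G3, 83.4% in G11, 82.7% in G13 and 80.4% in G14. Exon B held 15.2% in the control and 14.2% to 16.6% in the G libraries, and exon C held 0.931% to 2.97% in all. The total, in contrast, spanned 58.7 to 152 TPM. The first 300 nt of ENST00000620565 are 71% G and C. Over the 3133 annotated isoforms with the highest GC content there (69.7% or more), the log2 ratio had a median of -0.50 in G13, -0.35 in G12, -0.29 in G14, -0.20 in G11, 0.13 in G5 and 0.33 in G3. For UHRF1 it was -0.98 in G13, -0.59 in G14, -0.52 in G12, -0.02 in G11, 0.38 in G3 and 0.38 in G5. The 2 were near each other in G3 and differed by more in the other libraries, and the part of base composition in the UHRF1 level was not tested. One isoform, ENST00000620565.4, held 12598 of the 16043 UHRF1 reads, and its gene ID in the table is joined to a transcript ID of another record, so its reads enter UHRF1 through the first part of that ID.

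DNMT3A, a de novo methyltransferase, lies on the minus strand at chr2:25227855-25342590. Its long form (912 codons) starts at distal first exons, and a short form starts at an internal first exon (chr2:25252194-25252311) and lacks the amino-terminal part. The short form is known as the main DNMT3A of pluripotent cells. In the control 90.2% of DNMT3A reads began at its first exon, against 88.4% in G5, 87.9% in G11, 87.1% in G3, 86.7% in G12, 85.7% in G13 and 85.5% in G14. Distal starts held 73 reads in the control (5.52%) and 66 to 157 in the G libraries (5.91% to 7.67%). Distal starts, and with them the long form, thus stayed minor in all 7 libraries. Not all reads with a distal start are of the long form. The early last exon described below lies upstream of the short-form first exon, so reads that end there are of neither form. They numbered 39 in the control and 76 in G12, beside 73 and 97 distal starts.

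The short form has 2 annotated versions, ENST00000380746 with 19 exons and 723 codons, and ENST00000402667 with 18 exons and 689 codons. They differ in annotated length, 3589 and 2300 nt, and in the inclusion of a 68 nt exon (chr2:25249657-25249724, minus strand). The exon is printed here because it is the one cassette exon of DNMT3A that was counted.
DNMT3A short-form exon 2: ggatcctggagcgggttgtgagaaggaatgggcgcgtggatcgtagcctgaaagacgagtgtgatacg

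Reads with that exon were 29.8% of both versions in the control, 30.2% in G5, 28.6% in G3, 28.6% in G12, 27.4% in G14, 27.0% in G13 and 26.7% in G11. Between these versions its share hence stayed at 26.7% to 30.2% while the level of the gene changed. Other DNMT3A isoforms were not counted for this exon. The isoforms ENST00000402667.1 and ENST00000380746.8 held 48.8% and 19.3% of DNMT3A reads on average. A further isoform with a hashed ID held 7.02% and ENST00000683760.1, which GENCODE 29 does not list, held 7.01%. At the other end, 94.2% to 96.7% of DNMT3A reads ended in the last exon, and 2.95% to 5.79% ended in the early last exon of ENST00000406659, a transcript of 166 codons.

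A small share of DNMT3A reads began at the edge of an internal exon common to both forms (chr2:25248037-25248252). They were 30 reads in the control, 96 in G5, 79 in G11, 73 in G12, 62 in G14, 54 in G13 and 52 in G3. The share was 2.27% in the control and higher in all 6 G libraries, at 5.89% in G14, 5.79% in G13, 5.53% in G12, 4.81% in G11, 3.82% in G5 and 3.04% in G3. Of these 446 reads, 98.4% were of isoforms that begin within 5 nt of the exon's edge, and a single isoform held 438.

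DNMT3B, the other de novo methyltransferase, lies on the plus strand at chr20:32762385-32809356, and its reads fell into groups by their 5′ end. The transcript ENST00000328111 (23 exons, 4336 nt, 853 codons) has a noncoding first exon (chr20:32762385-32762699) of 315 nt, and its ATG lies in exon 2 (chr20:32780318-32780465). Most reads began either in the first exon or at the edge of exon 2, and 98.5% to 100% of them ended in the last exon. The first bases of exon 2, with the ATG in capitals, show that a read that begins at this edge still holds the start of the reading frame (chr20:32780318-32780377, plus strand).
DNMT3B exon 2: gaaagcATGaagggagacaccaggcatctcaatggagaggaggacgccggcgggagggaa

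Reads from the first exon carried the change in the DNMT3B total. They stood at 35.1 TPM in the control, 5.40 in G13, 10.1 in G14, 12.7 in G12, 15.99 in G11, 35.8 in G5 and 57.5 in G3. G3 was at 164% of the control (148 to 182), G5 at 102% (91.9 to 113), G11 at 45.6%, G12 at 36.2%, G14 at 28.7% (24.4 to 33.7) and G13 at 15.4% (12.6 to 18.7).

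Reads that began at exon 2 were near the control's level or above it. They stood at 7.32 TPM in the control, 12.7 in G14, 10.2 in G11, 9.74 in G5, 8.68 in G3, 8.25 in G12 and 7.55 in G13. G13 was thus at 103% of the control (81.3 to 131) and G14 at 173% (140 to 217). The share of DNMT3B reads from the first exon was 79.2% in the control (76.1 to 81.9), 40.2% in G13 (34.9 to 45.8), 42.0% in G14 (37.8 to 46.4), 56.3% in G12, 56.3% in G11, 74.0% in G5 and 84.5% in G3. The intervals of G11 to G14 lay below that of the control, and the interval of G3 (82.4 to 86.4) lay above it.

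**Figure D3:**
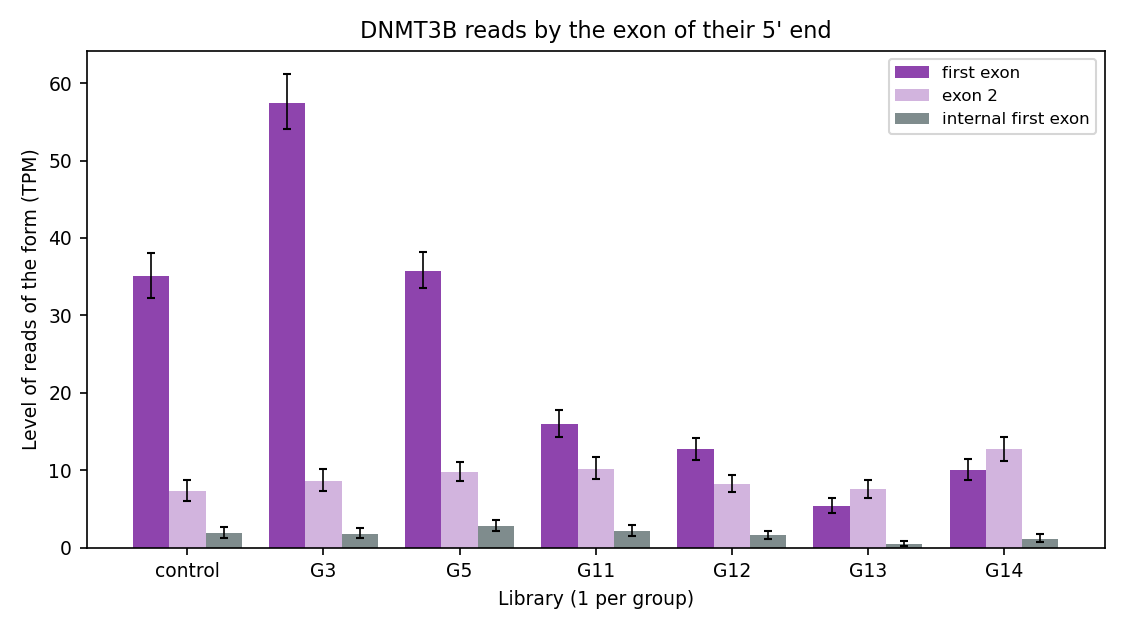
Level (TPM) of DNMT3B reads in the 7 libraries, 1 per group, by the exon in which the read begins; bars are levels and error bars exact 95% Poisson intervals. Reads from the first exon range from 5.40 TPM in G13 to 57.5 TPM in G3, and reads that begin at exon 2 stay between 7.32 and 12.7 TPM.

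Both starts differ in base composition. The first 300 nt of ENST00000328111 are 79.3% G and C, whereas the 300 nt from the edge of exon 2 on are 60.7%. Over 471 annotated isoforms whose first 300 nt came within 2 percentage points of the former value, the median log2 ratio was -0.66 in G13, -0.47 in G12, -0.35 in G11, -0.24 in G14, 0.05 in G5 and 0.41 in G3. For DNMT3B reads from the first exon it was -2.59 in G13, -1.75 in G14, -1.43 in G12, -1.11 in G11, 0.03 in G5 and 0.71 in G3. Over the 2972 isoforms with the lowest GC content at the 5′ end it was 0.24 in G5, 0.22 in G14, 0.18 in G11, 0.12 in G13, 0.09 in G12 and 0.07 in G3. Base composition at the 5′ end therefore moved with the libraries in the same directions as the first-exon reads, with smaller values in G3 and in G11 to G14, and its part in the DNMT3B result was not tested. Of the 1397 reads that began in exon 2, 95.9% were of isoforms that begin within 5 nt of its edge, and a single isoform held 1176.

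Among the annotated DNMT3B transcripts that could be compared, splicing within the coding part varied little. Exon 10, shown here because its skipping defines an annotated shorter isoform, has 60 nt (chr20:32793536-32793595, plus strand).
DNMT3B exon 10: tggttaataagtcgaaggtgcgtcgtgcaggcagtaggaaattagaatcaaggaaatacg

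Among reads of these annotated transcripts from the first exon, the form with all exons held 95.2% to 97.9% in every library. Such reads were 475 of the 744 DNMT3B reads in the control and 107 of 306 in G13. Isoforms with a hashed ID have no known internal exons and could not enter. Nor did ENST00000696232.1, whose exons GENCODE 29 does not give. It had 58 reads in the control and from 11 (G13) to 140 (G3) in the G libraries. The form that lacks exon 10 (ENST00000353855, 833 codons) had 6 of 475 reads in the control, 12 of 784 in G5, 9 of 823 in G3, 5 of 309 in G12, 5 of 284 in G11, 3 of 168 in G14 and none of 107 in G13, where 3 reads, the limit taken for a count of 0, would be 2.80%. The form that also lacks exons 21 and 22 (ENST00000348286, 770 codons), which is known to be catalytically inactive, had 10 control reads, 13 in G3, 10 in G5, 9 in G12, 5 in G14, 3 in G13 and 1 in G11. At these depths the Wilson intervals of all libraries overlapped for each form. Such overlap does not show that the shares were equal. The isoform ENST00000328111.6 held 50.2% of DNMT3B reads on average, a hashed isoform that begins at exon 2 held 28.1%, and ENST00000696232.1, which GENCODE 29 does not list, held 6.15%. An internal first exon (chr20:32779852-32780145) had 11 to 72 reads a library.

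The sequence upstream of the internal starts differed between both de novo enzymes. Shown are the 100 bases before a RefSeq start of the DNMT3A short form (chr2:25252316-25252415, minus strand) and before the internal start of DNMT3B (chr20:32779752-32779851, plus strand). They are given because the short-form first exon served most DNMT3A reads and the internal start few DNMT3B reads. CG dinucleotides, the substrate of these enzymes, are in capitals (RefSeq, GRCh38.p14).
DNMT3A short form: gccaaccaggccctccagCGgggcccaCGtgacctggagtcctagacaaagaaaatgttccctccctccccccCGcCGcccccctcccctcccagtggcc
DNMT3B internal start: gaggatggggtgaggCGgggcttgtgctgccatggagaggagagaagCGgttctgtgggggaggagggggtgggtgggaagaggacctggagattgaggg

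Over 250 bases upstream, the motif CG, which reads the same on both strands, occurred 25 times for that DNMT3A start and 3 times for the internal start of DNMT3B. Other RefSeq starts near that of the DNMT3A short form had 22 and 15. The median over 35116 RefSeq start windows of this length was 11, with quartiles of 3 and 23. RefSeq start windows were found for all 5 genes, 14 in all. The internal start was the only one found for DNMT3B, so its first exon is not covered by these counts. These counts describe sequence only, since methylation was not measured.

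TET1, the methylcytosine dioxygenase on the plus strand at chr10:68560656-68694482, was at the floor of these libraries. It had 4 reads in the control, 6 in G14, 5 in G11, 3 in G13, 2 in G3, 2 in G5 and 2 in G12, or 0.07 to 0.29 TPM. None of its 4 isoforms carries a reference ID. Its annotated transcript ENST00000373644 is 9288 nt long, the longest of the annotated transcripts considered here apart from ENST00000264709 of DNMT3A at 9501 nt. The counts do not separate any pair of libraries, and no fold is given. Its relatives TET2 and TET3 reached at most 0.119 and 0.0595 TPM, so that no TET enzyme was measured above the floor in any G library other than TET1 itself in G11 and G14.

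Isoform usage as a whole set DNMT1 and DNMT3B apart from UHRF1. It was compared with the control by the total variation distance, which is 0 where all isoform shares are equal and 1 where none is shared. For DNMT1 the distance was 0.110 in G12, 0.141 in G13, 0.145 in G14, 0.153 in G11, 0.258 in G5 and 0.464 in G3. For DNMT3B it was 0.411 in G13, 0.387 in G14, 0.248 in G11, 0.241 in G12, 0.106 in G3 and 0.0776 in G5. DNMT1 usage thus lay farthest from the control in G3 and G5, and DNMT3B usage in G13 and G14.

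Among the 4153 genes of 20 to 200 TPM, the 90th percentile of that distance lay between 0.146 in G3 and 0.183 in G13, and the median between 0.0546 and 0.0673. DNMT1 exceeded the 90th percentile in G3 and G5, and DNMT3B in G11 to G14. UHRF1 stayed at 0.0288 to 0.0402, below the median in every G library. DNMT3A lay between the median and the 90th percentile throughout, at 0.0862 to 0.146. The distance also takes in counting error, which is larger at lower read counts. Isoforms found in the control alone add to it in every G library. DNMT3A had 54 such isoforms, DNMT1 28, UHRF1 20 and DNMT3B 16. The part of either in these distances was not tested.

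**Figure D4:**
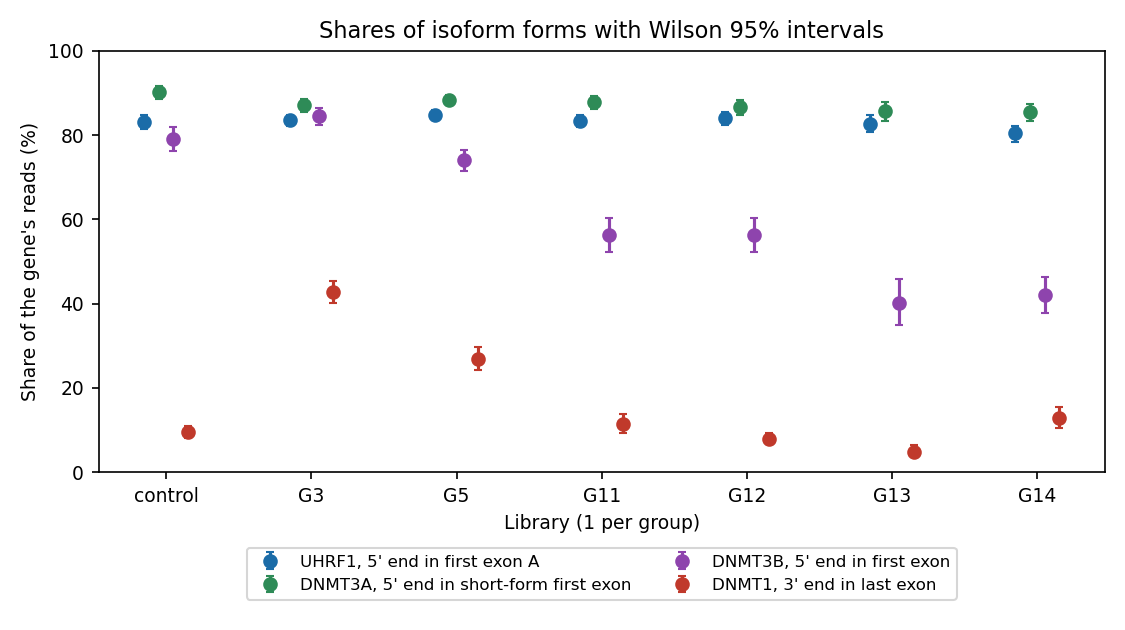
Share (%) of each gene's reads that belong to the named form in the 7 libraries, 1 per group; points are shares and bars Wilson 95% intervals. UHRF1 exon A stays between 80.4% and 84.8% and the DNMT3A short form between 85.5% and 90.2%, while DNMT3B first-exon reads range from 40.2% to 84.5% and DNMT1 reads to the last exon from 4.88% to 42.8%.

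The other genes of the pathway were read against the same shares of all genes. Of a list of 27 readers, partners and suppliers of methyl groups, 26 were in the table and 20 passed the filter. None was 2-fold lower in G3, G5, G11, G12 or G14, where 5.14%, 10.1%, 10.4%, 8.79% and 18.9% of all genes were, and 1 was in G13 (14.6% of all genes). In G3 none was 2-fold higher (1.89% of all genes). In G5, G11, G12 and G13 1 was (0.533%, 0.724%, 0.546% and 1.04%), and in G14 2 were (3.97%). The median log2 ratio over the 20 was 0.07 in G13, 0.08 in G12, 0.14 in G11, 0.20 in G5, 0.23 in G14 and 0.29 in G3. These medians stayed above those of all genes given above, while the medians of the 4 enzymes lay below them in G11, G12, G13 and G14.

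The gene that was 2-fold higher in 5 G libraries was MBD4, a glycosylase that removes thymine or uracil opposite guanine at methylated sites. It stood at 30.4 TPM in the control, 96.0 in G14, 84.6 in G13, 71.3 in G11, 64.7 in G5, 63.6 in G12 and 57.2 in G3. All 6 G libraries were above the control. TDG, the glycosylase that acts after the TET enzymes, stood at 71.6 TPM in the control and 75.9 to 120 in the G libraries, and was 2-fold higher in none.

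Among methyl-CpG binding proteins, MBD1 had log2 ratios of 0.18 in G5, 0.17 in G3, -0.40 in G11, -0.62 in G14, -0.79 in G12 and -1.24 in G13, and was the gene 2-fold lower in G13. MBD3, a subunit of the NuRD complex, did not pass the filter and stood at 5.89 TPM in the control and 0.702 in G13. It was 2-fold lower in 3 G libraries. MAT2B, the regulatory subunit of the enzyme that makes S-adenosylmethionine, was 2-fold higher in G14 (log2 ratio 1.05). HELLS, the chromatin remodeler that aids methylation, stood at 83.2 TPM in the control and 102 to 131 in the G libraries. DNMT3L, the inactive partner of the de novo enzymes, reached at most 0.179 TPM. MBD2 was not analysed here.

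**Figure D5:**
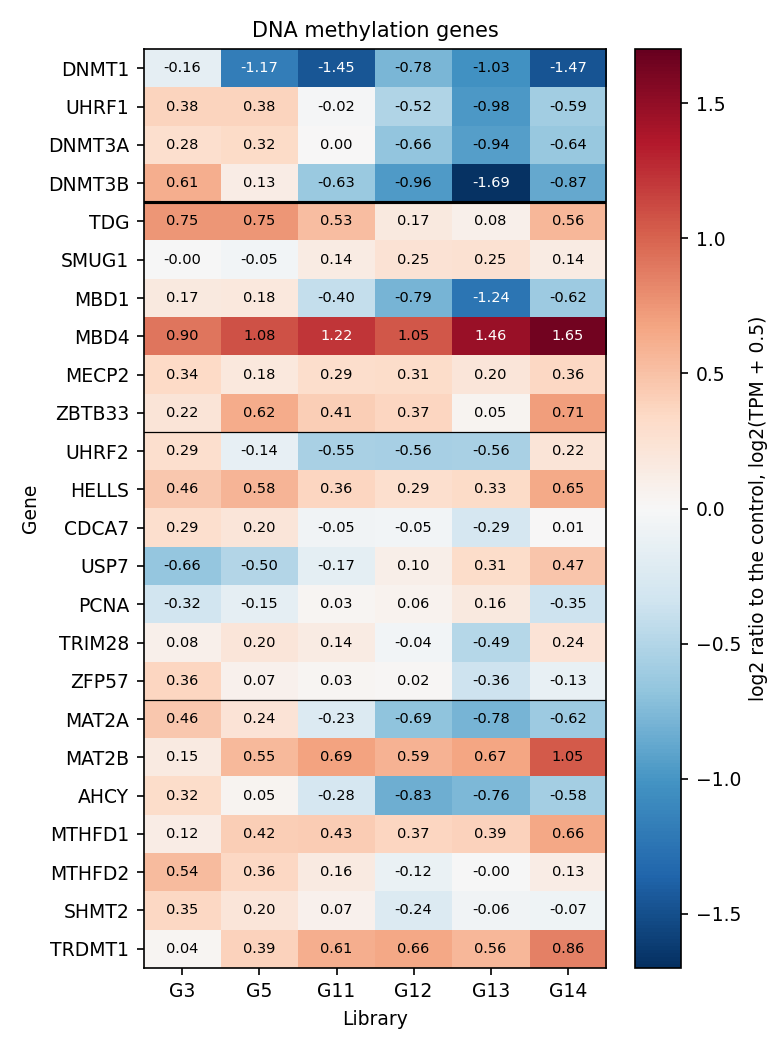
log2 ratio to the control, on log2(TPM + 0.5), of DNMT1, UHRF1, DNMT3A and DNMT3B (above the thick line) and of the 20 listed pathway genes that passed the filter, in readers and removal, partners, and methyl donor supply (thin lines), with 1 library per column. Red is higher and blue lower than the control; MBD4 is the row that is high throughout (0.90 to 1.65), and DNMT3B in G13 (-1.69) is the lowest value.

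UHRF1 and DNMT3A were near neighbours in profile. Likeness was measured as the mean absolute difference of log2(TPM + 0.5), centred on each gene's mean over the 7 libraries, among 6619 genes of at least 10 TPM. UHRF1 was the gene most like DNMT3A, with a difference of 0.05, followed by PLA2G3 and COASY, both at 0.06. The genes most like UHRF1 were PHF13, POR and DNMT3A, all at 0.05. The median difference of a gene from DNMT3A was 0.45.

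DNMT1 was unlike the other 3, with a mean difference of 0.53 to 0.56 from each, whereas DNMT3B differed from UHRF1 by 0.25 and from DNMT3A by 0.26. The genes most like DNMT1 were THOC7, HAGHL and PABPN1, at 0.06 to 0.09. The genes most like DNMT3B were PPP6R2, TSPAN14 and THOP1, at 0.05 to 0.06. These figures rest on 7 libraries that share 1 control and differ in length and base composition, and they describe likeness only.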

How the data were processed

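Full-length reads were counted in 7 libraries, 1 per group. Per the labels' protocols, cDNA was joined into arrays (MAS-Seq), sequenced on Revio and split into single reads. The deposited table gives a count and a TPM value per isoform. Per the submitters' processing notes, GRCh38 (hg38) and minimap2 2.17 were used, in roles not stated; the program that assigned reads to isoforms, its filters and annotation are not given in the sources used here.

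The authors' TPM equalled the deposited count over 1 constant per library to within 0.005, with no length term; levels were computed from the deposited counts. Starts were taken as counted from 0 and printed with 1 added. Isoforms were summed by Ensembl gene ID. Isoform ends within 50 nt of an exon of GENCODE 29 were assigned to it, and each read took the ends of its isoform.

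Levels were compared as log2(TPM + 0.5), for genes with a mean of at least 5 TPM; a 2-fold difference was counted. With 1 library per group no test was possible. Intervals are exact (Clopper-Pearson) for ratios and Wilson for shares, at 95%; reads carry no molecular identifiers, so they cover counting error only. The scripts were tested on simulated data. Named are the 5 genes, isoforms with at least 5% of a gene's reads on average, pathway genes 2-fold from the control in 3 or more G libraries, the 3 genes nearest in profile and RBFOX2; any other gene or form was named with its values in view. The members and lists were chosen with earlier results of these data known. Python 3.11.15, numpy 2.4.6, pandas 2.3.3, scipy 1.17.1 and matplotlib 3.10.9 were used.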

Additional observations from a re-analysis of the deposited data

How the results depend on the processing

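No paired analysis was possible because each group holds 1 library and all carry the same replicate number. With reference IDs only, the median log2 ratio over the G libraries went from -1.10 to -0.77 for DNMT1 and from -0.75 to -1.20 for DNMT3B, and DNMT1 turned to 2.34 in G3 and 0.70 in G5. This setting drops the leading DNMT1 isoforms that end in exon 8 and the leading DNMT3B isoform that begins at exon 2, all with hashed IDs. Under it the median share of DNMT1 reads to the last exon went from 11.3% to 100%. That of DNMT3B reads from the first exon went from 56.3% to 100%. The share of the DNMT3A short form went from 87.1% to 95% (89.6% with isoforms of at least 1 TPM). After removal of the length and GC trend the medians were -0.80 for DNMT1, -0.12 for DNMT3A (-0.32 before), -0.51 for DNMT3B and 0.018 for UHRF1 (-0.27 before), and DNMT1 in G13 turned to 0.16. Scaling by the median of ratios gave -0.18 for UHRF1 and left 4 of 5 pairs of gene and library 2-fold lower, with DNMT1 in G13 at -0.87. In settings chosen after seeing the data, the median was -0.96 for DNMT1 reads to the last exon and -1.27 for DNMT3B reads from the first exon. Without 1 G library at a time, the median lay between -0.64 and 0.0015 for DNMT3A, reaching the latter without G12, G13 or G14, and between -0.52 and -0.018 for UHRF1, reaching the latter without the same libraries. At a 1.5-fold threshold, 14 pairs of gene and library in place of 5 were lower and 1 in place of 0 was higher. Of 168 ratios of a single gene and library recomputed, 109 stayed within their counting interval, 59 left it and 12 changed sign. The settings differed widely in this. With 0.1 or 1 TPM added in place of 0.5, all 30 ratios stayed within it each time. After removal of the length and GC trend, 22 of 24 left it. So did 18 of 30 against the median of the other 6 libraries, 11 of 24 with reference IDs only and 8 of 30 with scaling by the median of ratios. Beside those named here and in the results, the sign changed against the median of the other 6 libraries for DNMT1 in G3 (0.94) and G12 (0.32), and for UHRF1 in G11 under 4 settings (0.022 to 0.24, from -0.018). The cause was not tested for those with no cause named. TET1 has no reference ID and did not enter the trend, so neither setting gave a value for it. Depth limits TET1 and the DNMT3B exon 10 form, each with under 20 reads in every library.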
